A study of Mus musculus with 12 samples.

Results

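The J segments TRBJ1-1, TRBJ1-2, TRBJ1-3, TRBJ1-4 and TRBJ1-6 are the members of the TRBJ1 cluster of the mouse T cell receptor (TCR) beta locus other than TRBJ1-5 and TRBJ1-7. A clonotype, which is 1 deposited entry with its own complementarity-determining region 3 (CDR3), was assigned to a member when that member was the first J gene in its list of J hits. In all, 36356 of the 113665 clonotypes in the 12 libraries fulfilled this criterion, and they held 579122 of 1716882 unique molecular identifiers (UMIs), or 33.7%. TRBJ1-1 accounted for 13768 of these clonotypes, TRBJ1-3 for 7111, TRBJ1-2 for 6345, TRBJ1-4 for 6182 and TRBJ1-6 for 2950. In the whole series, 14 J segments had a clonotype, and 12 of them had enough UMIs for a test.

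A TCR beta chain is assembled in the thymus by joining 1 D segment to 1 J segment and then 1 V segment to that DJ unit. Enzymes trim the coding ends and add palindromic (P) and non-templated (N) bases before ligation, so the junction, the CDR3, differs between T cells with the same V and J segment. The beta locus holds a D and J cluster ahead of each of its constant genes, with TRBD1 in front of the TRBJ1 segments and TRBD2 in front of the TRBJ2 segments. All progeny of an expanding T cell carry the same CDR3, so the share of a J segment in an expanded population depends on how often the segment was joined and on which clones grew.

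The study used these libraries to ask whether clonal expansion in vivo was altered in T cells that lack the AMP-activated protein kinase subunit AMPKα1, encoded by Prkaa1, an energy sensor of the cell. Naive CD4+ T cells of C57BL/6 background were transferred into Rag2-/- mice, which cannot make T cells of their own, to cause transfer colitis, and CD4+ T cells were isolated 6 weeks later from spleen and mesenteric lymph node (mLN). Donors, 6 to 8 weeks old, were PRKAA1fl/fl (WT) or PRKAA1fl/fl with CD4-Cre (KO), so the floxed allele was present in all groups and Cre, which the Cd4 promoter switches on during thymic development, was present in KO alone. The groups WT spleen, WT mLN, KO spleen and KO mLN had 3 libraries each, from 6 mice: WT replicates 1, 3 and 4 and KO replicates 1, 2 and 3. Because the UMIs mark TCR transcripts of a cell population, more cells of a clone and more TCR RNA per cell cannot be told apart in any share below.

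The members had 685 to 176457 UMIs per library, within totals of 2488 to 493287 UMIs. Libraries were of separate kinds, each of which included WT and KO. In 5 libraries (WT replicate 1 and KO replicate 1 in spleen and mLN, and the mLN library of KO replicate 3) at most 8.09% of the members' clonotypes of 1 UMI ended in bases unusual for their J segment. In the other 7 libraries, which were also the 7 largest, 32.9 to 49.6% did. Genotype differences in share, clonotype number and largest clonotype are for this reason also described inside either kind, few or many unusual ends. The kinds hold 1 WT and 1 KO against 2 WT and 2 KO libraries in spleen, and 1 WT and 2 KO against 2 WT and 1 KO libraries in mLN, which are too few for a test.

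The germline sequences of the members are shown because they fix what each can contribute to a CDR3. They lie within chr6:41533864-41535606 on the plus strand of GRCm38, between TRBD1 (chr6:41533201-41533212) and TRBC1 (chr6:41538218-41539881), while TRBD2 (chr6:41542163-41542176) lies downstream of all of them. TRBJ1-1 occupies chr6:41533864-41533911, TRBJ1-2 chr6:41534001-41534048, TRBJ1-3 chr6:41534323-41534376, TRBJ1-4 chr6:41534811-41534861 and TRBJ1-6 chr6:41535554-41535606, each annotated as a J gene. In the following sequences, capitals mark the bases that belong to the CDR3, up to and including the codon of the conserved phenylalanine:
TRBJ1-1: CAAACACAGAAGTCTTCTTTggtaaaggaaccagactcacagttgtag
TRBJ1-2: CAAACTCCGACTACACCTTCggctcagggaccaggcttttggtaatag
TRBJ1-3: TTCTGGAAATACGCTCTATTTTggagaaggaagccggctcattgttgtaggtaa
TRBJ1-4: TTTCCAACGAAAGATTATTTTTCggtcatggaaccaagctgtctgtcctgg
TRBJ1-6: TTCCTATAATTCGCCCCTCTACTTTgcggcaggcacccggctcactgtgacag
The untrimmed contribution rises from 20 bases in TRBJ1-1 and TRBJ1-2 over 22 in TRBJ1-3 and 23 in TRBJ1-4 to 25 in TRBJ1-6.

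Directly upstream of each member lies its recombination signal, whose heptamer borders the coding end and is where the RAG recombinase cuts. The 28 bases upstream of each member are shown with the heptamer in capitals:
TRBJ1-1 signal: atttttctcctcatcctatggCACTGTG
TRBJ1-2 signal: catattcgagtatctgtattcTGATGTG
TRBJ1-3 signal: ggttttgaagtggacccgggaGGCTGTG
TRBJ1-4 signal: agttttaccaccaggctttaaTGTTGTG
TRBJ1-6 signal: ggttttaccaaggccacctgcAGCTGTG
The consensus heptamer, read on the plus strand as CACTGTG, was found whole beside TRBJ1-1 and beside no other of the 12 J segments tested (8.33%), whereas GTG next to the coding end was present in 12 of 12. The number of the 7 heptamer positions equal to the consensus was 7 for TRBJ1-1, 5 for TRBJ1-3 and TRBJ1-6, and 4 for TRBJ1-2 and TRBJ1-4. These matches are a description of the sequence alone.

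TRBJ1-1 was the most used member. Averaged over both organs of a mouse, it made up 11.4 ± 3.33% of UMIs (SD, n = 6 mice, range 6.51 to 15.9%) and ranked 3 among the 12 J segments. TRBJ1-3 followed with 6.12 ± 1.04%, TRBJ1-4 with 5.69 ± 1.06% and TRBJ1-2 with 4.97 ± 2.58%, which ranked 7, 8 and 9. TRBJ1-6 made up 2.69 ± 1.05% and ranked 11, above TRBJ1-5 only. No neighbour pair in this order passed (two-sided exact sign-flip test over 6 mice, adjusted p of at least 0.344 over 11 neighbour pairs). With 6 mice the unadjusted p cannot go below 0.03125, so a pair alone could not pass after adjustment. The order was also set by the same means. The test therefore cannot decide whether neighbours differ.

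Counted as clonotypes instead of UMIs, so that expansion of single clones weighed less, the members kept their places relative to each other in mean share. TRBJ1-1 held 10.98 ± 1.39% of clonotypes, TRBJ1-3 6.51 ± 0.756%, TRBJ1-4 5.89 ± 0.691%, TRBJ1-2 5.08 ± 1.12% and TRBJ1-6 2.90 ± 0.472%. These counts include clonotypes of 1 UMI, many with unusual ends. In the 7 libraries with many such ends, they were 64.9% of the 1-UMI clonotypes of TRBJ1-2 and 30.1% of those of TRBJ1-6. With clonotypes of at least 2 UMIs, summed over libraries, TRBJ1-4 (1725) stood above TRBJ1-3 (1654). The coefficient of variation between mice was 51.9% by UMIs and 22.1% by clonotypes for TRBJ1-2, and 39.0% and 16.3% for TRBJ1-6. The step from TRBJ1-2 down to TRBJ1-6 was 2.18 ± 1.45 percentage points and had the same direction in 6 of 6 mice (exact sign-flip p = 0.03125, the smallest 6 mice allow, adjusted p = 0.115). In total the members made up 30.7 ± 10.1% of UMIs in WT spleen, 29.8 ± 3.56% in KO spleen, 30.04 ± 5.49% in WT mLN and 32.9 ± 5.39% in KO mLN (n = 3 each).

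**Figure D1:**
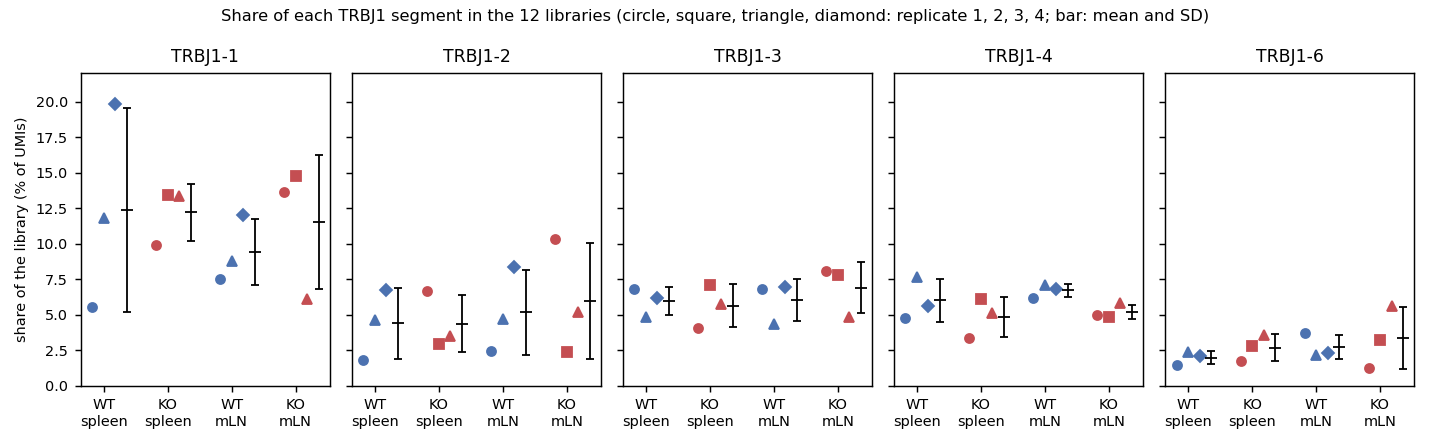
Share of each of the 5 TRBJ1 segments in the 12 libraries, as percent of UMIs (vertical axis) by group (horizontal axis). Each symbol is 1 library, with the shape giving the replicate number, blue for WT and red for KO, and the black bar is the mean and SD of 3 libraries. The highest point is TRBJ1-1 in WT replicate 4 spleen at 19.8%, and WT and KO overlap in every pair of groups except TRBJ1-4 in mLN.

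To see whether AMPKα1 loss shifted the use of these segments, WT and KO libraries were compared within each organ. TRBJ1-1 made up 5.51, 11.8 and 19.8% of spleen UMIs in WT replicates 1, 3 and 4, and 9.90, 13.4 and 13.3% in KO replicates 1, 2 and 3. The KO values lay between the lowest and the highest WT value, so the groups overlapped fully. In mLN, TRBJ1-1 made up 7.51, 8.78 and 11.99% in WT and 13.7, 14.8 and 6.11% in KO, with 2 KO libraries above and 1 below all WT libraries.

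TRBJ1-2 had the largest relative spread between mice among the members. In spleen its share was 1.80, 4.61 and 6.74% in WT and 6.68, 2.91 and 3.53% in KO, and in mLN it was 2.44, 4.72 and 8.34% in WT and 10.4, 2.36 and 5.18% in KO. High libraries were those of WT replicate 4 and KO replicate 1, in both organs.

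TRBJ1-3 had the smallest relative spread between mice of the members, a coefficient of variation of 16.9%. It made up 6.80, 4.86 and 6.16% in WT spleen and 4.06, 7.09 and 5.73% in KO spleen. In mLN it made up 6.79, 4.31 and 6.94% in WT and 8.09, 7.76 and 4.86% in KO. WT and KO overlapped in both organs.

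TRBJ1-4 made up 4.75, 7.66 and 5.59% of spleen UMIs in WT and 3.34, 6.13 and 5.12% in KO, again with overlap. In mLN its share was 6.21, 7.12 and 6.79% in WT and 4.95, 4.84 and 5.79% in KO, so that all 3 KO libraries lay below all WT libraries. Groups that did not overlap were seen in mLN for 2 of the 12 J segments (16.7%), the other being TRBJ1-5, and in spleen for TRBJ1-5 alone (8.33%).

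TRBJ1-6 was low throughout, with 1.44, 2.39 and 2.12% in WT spleen and 1.71, 2.80 and 3.54% in KO spleen. In mLN it made up 3.70, 2.17 and 2.30% in WT and 1.26, 3.25 and 5.59% in KO. Its highest value came from the library with 2488 UMIs, in which TRBJ1-6 had 139 UMIs.

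In spleen, edgeR's quasi-likelihood test on UMIs per segment called 1 of 12 J segments (8.33%) at an adjusted p of 0.05 or less, which was TRBJ1-5, and no member. The members' log2 fold changes of KO over WT were −0.02 for TRBJ1-1 (95% interval −0.87 to 0.83), −0.01 for TRBJ1-2 (−0.79 to 0.78), −0.08 for TRBJ1-3 (−0.85 to 0.70), −0.30 for TRBJ1-4 (−1.07 to 0.47) and 0.43 for TRBJ1-6 (−0.30 to 1.17), with edgeR adjusted p-values of 0.974 to 0.983. Each interval gives the changes compatible with these data from 3 mice a group. The spleen fit had 48 degrees of freedom for every segment, against 6.72 in mLN, because variance was shared across segments. The spleen intervals therefore do not follow the spread of each segment alone. In mLN, edgeR called 0 of 12 segments (0%, with 1 at an unadjusted p under 0.05, and 0 by DESeq2). The members' log2 fold changes there were 0.29, 0.21, 0.20, −0.37 and 0.29 in the same order, with edgeR adjusted p-values of 0.706 to 0.910. The widest interval was that of TRBJ1-2 (−1.33 to 1.75), and that of TRBJ1-4 reached from −0.94 to 0.19.

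**Figure D2:**
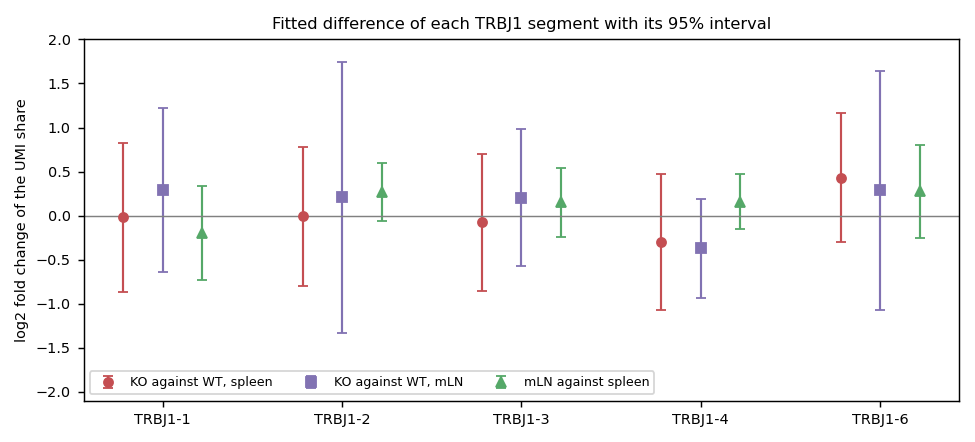
Fitted log2 fold change of the UMI share of each TRBJ1 segment (points) with its 95% interval (bars) for KO against WT in spleen and mLN and for mLN against spleen. Every interval includes 0, and the widest is that of TRBJ1-2 for KO against WT in mLN, from −1.33 to 1.75.

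Within the kinds of library, the direction of most differences did not hold. In spleen, KO minus WT was −0.157 percentage points for TRBJ1-1, but 4.39 in libraries with few unusual ends and −2.43 in those with many. TRBJ1-2 behaved in the same way (−0.00782 pooled, 4.88 and −2.45), and TRBJ1-3 in the opposite one (−0.312 pooled, −2.73 and 0.900). TRBJ1-4 was lower in KO in both kinds (−1.13 pooled, −1.40 and −1.0001), and TRBJ1-6 was higher in both (0.700 pooled, 0.269 and 0.916).

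In mLN, TRBJ1-4 was lower in KO in both kinds as well (−1.51 pooled, −0.838 and −2.12, exact permutation p = 0.1, the smallest possible with 3 against 3 mice). Its clonotypes went the other way, at 5.51 ± 0.255% of all clonotypes in WT and 6.35 ± 1.29% in KO mLN, and the fitted log2 fold change was 0.11 when clonotypes were counted in place of UMIs (edgeR adjusted p = 0.812). By kind, the clonotype difference was 1.81 percentage points with few unusual ends and −0.715 with many, so in the latter it had the direction of the UMIs. TRBJ1-1 was higher in KO mLN in both kinds (2.09 pooled, 2.38 and 4.38). TRBJ1-2 (0.7998 pooled, 5.33 and −4.17), TRBJ1-3 (0.889, −0.314 and 2.13) and TRBJ1-6 (0.640, −0.281 and 1.01) changed sign between kinds. Without the smallest library, the mLN difference of TRBJ1-6 turned to −0.472 and that of TRBJ1-1 rose to 4.79.

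When clonotypes were counted, edgeR called 2 of 12 segments in mLN (16.7%) and 1 of 12 in spleen (8.33%), and no member was among them. TRBJ1-2 came nearest to a call, with 5.83 ± 1.53% of WT mLN clonotypes against 4.33 ± 0.511% of KO mLN clonotypes (edgeR adjusted p = 0.0890 for a log2 fold change of −0.53). The groups overlapped. The pooled direction was opposite to that of its UMIs in mLN, but inside the kinds clonotypes and UMIs had the same direction, with clonotype differences of 0.243 percentage points for few and −2.72 for many unusual ends. With clonotypes of at least 2 UMIs, counted after seeing the data, the TRBJ1-2 log2 fold change was −0.11 (edgeR adjusted p = 0.591).

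Spleen and mLN of the same mouse were then compared with the mouse as a block. No J segment was called (0 of 12, 0%, with 1 at an unadjusted p under 0.05, and 0 by DESeq2). The members' log2 fold changes of mLN over spleen were −0.20 for TRBJ1-1, 0.27 for TRBJ1-2, 0.15 for TRBJ1-3, 0.16 for TRBJ1-4 and 0.28 for TRBJ1-6 (edgeR adjusted p = 0.381 to 0.632). TRBJ1-2 was higher in mLN in 5 of 6 mice, by 1.19 ± 1.49 percentage points on average, and TRBJ1-1 in 3 of 6 (−1.82 ± 4.94). The test of whether the genotype difference itself differed between organs called 0 of 12 segments (0%, with 0 at an unadjusted p under 0.05), and members' log2 estimates lay between −0.28 and 0.31 (edgeR adjusted p = 0.918). Counting clonotypes left this count at 0, with 3 segments at an unadjusted p under 0.05. In that setting TRBJ1-1 (log2 estimate 0.32) and TRBJ1-2 (−0.20) shared the smallest edgeR adjusted p, 0.168.

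The shares above rested on few clonotypes. The largest clonotype of TRBJ1-1 made up 12.3 to 39.6% of that segment's UMIs over the 12 libraries (median 17.6%), and the 10 largest together 51.6 to 78.9%. For TRBJ1-6, the least used member, the largest clonotype made up 10.7 to 64.03% (median 26.1%) and the 10 largest up to 98.6% (median 81.9%). Both TRBJ1-6 maxima came from KO replicate 3 mLN, where depth left 12 clonotypes of this segment on 139 UMIs. The 78.9% of TRBJ1-1 came from the same library, with 30 clonotypes. TRBJ1-3 had the most even composition among the members, with medians of 16.2% for the largest and 58.8% for the 10 largest clonotypes. Out-of-frame or stop-containing CDR3s made up a median of 4.42% of the UMIs of TRBJ1-1, 5.41% of TRBJ1-2, 4.5004% of TRBJ1-3, 7.20% of TRBJ1-4 and 7.02% of TRBJ1-6.

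**Figure D3:**
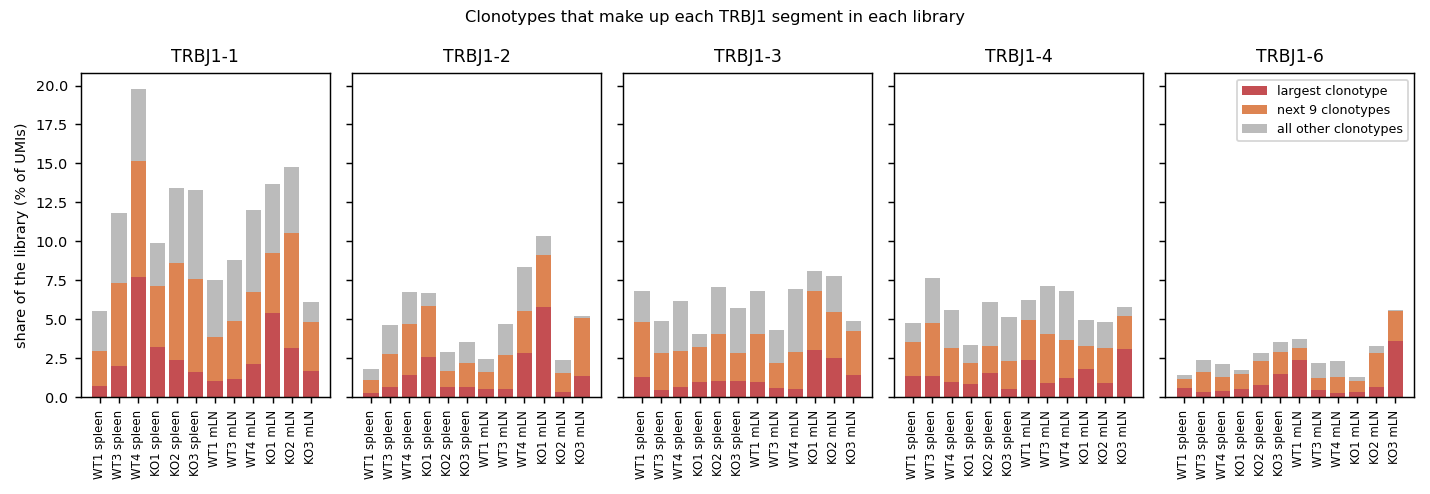
Share of each library (vertical axis, percent of UMIs) held by the largest clonotype (red), the next 9 (orange) and all others (grey) of each TRBJ1 segment, with libraries named by genotype, replicate and organ. The red part is large for TRBJ1-1 in WT replicate 4 spleen, where 1 clonotype took 38.8% of the segment, and for TRBJ1-2 in KO replicate 1 mLN, where 1 clonotype took 55.8%.

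The clonotype of each member with the highest mean share over the 12 libraries is shown because it was the largest single contribution to that member. Capitals mark the bases aligned to the J segment, and lower case holds the V end, any D bases and the added bases:
TRBJ1-1 with TRBV13-1: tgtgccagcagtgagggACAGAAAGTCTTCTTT
TRBJ1-2 with TRBV13-2: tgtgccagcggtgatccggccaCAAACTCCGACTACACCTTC
TRBJ1-3 with TRBV13-1: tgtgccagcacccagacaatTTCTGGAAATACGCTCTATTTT
TRBJ1-4 with TRBV3: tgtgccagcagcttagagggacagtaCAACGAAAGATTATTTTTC
TRBJ1-6 with TRBV5: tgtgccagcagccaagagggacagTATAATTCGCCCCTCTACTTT
All 5 were in frame without a stop codon. The TRBJ1-1 clonotype had lost 5 germline J bases and its aligned part was 1 base longer than the 15 that remained.

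The TRBJ1-1 clonotype made up 7.68% of WT replicate 4 spleen (Wilson 95% interval 7.60 to 7.76%), where it ranked 1 among all clonotypes, and 1.64% of the mLN of that mouse. The TRBJ1-2 clonotype ranked 1 in KO replicate 1 mLN with 5.78% (5.49 to 6.08%) and made up 2.60% of the spleen of that mouse. In that mouse the TRBJ1-3 clonotype reached 3.04% in mLN and 0.968% in spleen. The TRBJ1-4 clonotype took 2.40% of mLN and 1.35% of spleen in WT replicate 1. The TRBJ1-6 clonotype took 3.58% of KO replicate 3 mLN on 89 UMIs (2.92 to 4.38%) but 0.192% of the spleen of that mouse. Each of the 5 was thus large in 1 mouse.

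At lower counts the same CDR3s were also listed in other mice. The TRBJ1-1 clonotype had 21 and 9 UMIs in mLN and spleen of WT replicate 3. It had 2 in WT replicate 1 mLN and 1 in KO replicate 1 spleen, so it was listed in 4 of 6 mice. Its share in those libraries was at most 0.0306% (WT replicate 3 mLN), against 7.68% in WT replicate 4 spleen. The TRBJ1-4 clonotype had 1 or 2 UMIs in each of the 4 libraries of WT replicates 3 and 4. Its share there was at most 0.00201% (WT replicate 4 mLN), against 2.40% in WT replicate 1 mLN. Entries so far below their share in another mouse were left out of the count of shared sequences that follows. Whether they came from T cells of the mice that list them was not tested. Where a library listed none, its depth allowed a share of up to between 0.000608% in the deepest and 0.121% in the shallowest library (3 counts of the total, counting error only).

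Among members' CDR3s of at least 2 UMIs, leaving out entries whose share in some other mouse was 100 or more times higher, 36 of 1900 TRBJ1-1 sequences (1.89%) were found in 2 or more mice. The share was 1.24% for TRBJ1-2, 2.29% for TRBJ1-3, 1.68% for TRBJ1-4 and 2.27% for TRBJ1-6, against 1.85% over all J segments tested. No member sequence was found in more than 3 mice at this setting. Shared sequences had on average fewer bases between the V and J parts than those of 1 mouse in each member, with 6.08 against 8.19 for TRBJ1-6 (13 shared sequences) and 5.93 against 7.24 for TRBJ1-3 (27 shared). The median for TRBJ1-3 went the other way, 8 against 7 bases, and these values are a description without a test.

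How many different clonotypes stood behind each member was compared after drawing 2488 UMIs from each library. In spleen, TRBJ1-1 had 73.6 ± 20.3 clonotypes in WT and 72.8 ± 21.995 in KO, and the differences of the other members lay between −5.53 (TRBJ1-2) and −0.0333 (TRBJ1-4). In mLN the mean of every member was lower in KO, with differences from −12.4 for TRBJ1-6 to −21.95 for TRBJ1-1, as it was for 12 of 12 J segments and in both kinds of library. Without KO replicate 3, whose library set the common depth, the TRBJ1-1 difference was −8.91, that of TRBJ1-3 −13.6 and that of TRBJ1-4 −12.7. No J segment passed in either organ (0 of 12, exact permutation adjusted p of at least 0.6), and 3 mice against 3 cannot go below an unadjusted p of 0.1.

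TRBJ1-6 was the member whose groups did not overlap in mLN, with 19.96, 28.9 and 30.3 clonotypes in WT and 12.7, 17.3 and 12 in KO. Such separation was seen for 3 of 12 segments in mLN (25.0%) and 1 of 12 in spleen (8.33%). The value of 12 is from the library that was used whole. Without that mouse the difference was −11.4, against −12.4 with it.

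The largest clonotype of TRBJ1-3 made up 14.2, 14.5 and 7.42% of the segment's UMIs at that depth in WT mLN and 37.7, 32.6 and 28.9% in KO mLN. That of TRBJ1-1 made up 13.9, 14.1 and 18.1% in WT and 39.5, 21.8 and 27.6% in KO mLN. All KO values exceeded all WT values for both, which was the case for 3 of 12 segments in mLN (25.0%) and 1 of 12 in spleen (8.33%). The differences were 21.05 and 14.3 percentage points, and neither passed (exact permutation p = 0.1, adjusted p = 0.6). Both were higher in KO in either kind of library, by 19.2 (few unusual ends) and 21.6 points (many) for TRBJ1-3 and by 19.7 and 5.68 points for TRBJ1-1. Without KO replicate 1 the TRBJ1-1 difference was 9.33. In spleen the same differences were 4.99 and −1.90, the latter of opposite sign in the kinds (18.6 and −12.1), and whether they differed between organs was not tested.

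The members differed most clearly in how their coding ends had been trimmed. In clonotypes of at least 2 UMIs, TRBJ1-3 had lost 1.18 ± 0.169 bases on average (SD, n = 6 mice, from 6 to 525 clonotypes per member and library). TRBJ1-2 had lost 1.63 ± 0.164, TRBJ1-1 2.54 ± 0.170, TRBJ1-4 3.22 ± 0.261 and TRBJ1-6 4.44 ± 0.547 bases. TRBJ1-3 was the least and TRBJ1-6 the most trimmed of the 12 J segments. By mouse, TRBJ1-3 had lost 1.34, 1.19 and 1.32 bases in WT replicates 1, 3 and 4 and 1.14, 1.21 and 0.871 in KO replicates 1, 2 and 3. TRBJ1-6 had lost 5.48, 4.15 and 4.27 bases in WT and 3.96, 4.20 and 4.58 in KO, so the ranges of these members did not meet.

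Against the mean of the other 11 segments in the same mouse, TRBJ1-2 (−1.10 ± 0.121) and TRBJ1-3 (−1.59 ± 0.158) were trimmed less. TRBJ1-4 (0.634 ± 0.235) and TRBJ1-6 (1.96 ± 0.519) were trimmed more. Each difference had the same sign in 6 of 6 mice (exact sign-flip test, two-sided p = 0.03125, adjusted p = 0.0417). TRBJ1-1 did not pass (−0.111 ± 0.228, exact sign-flip adjusted p = 0.281). Over all segments, 9 of 12 passed (75.0%), 4 with fewer (33.3%) and 5 with more bases lost (41.7%), so a call in this test was common. By size, TRBJ1-3 and TRBJ1-6 were at the ends of the 12 segments, while TRBJ1-2 and TRBJ1-4 had neighbours of like size among the TRBJ2 segments, such as TRBJ2-3 (−1.39) and TRBJ2-7 (0.888). Weighted by UMIs no segment passed (smallest exact sign-flip adjusted p = 0.0625), though the 4 differences remained at −1.12, −1.41, 1.09 and 2.13 bases in the same order, and with clonotypes of 1 UMI included TRBJ1-4 did not pass (0.503, exact sign-flip adjusted p = 0.075).

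**Figure D4:**
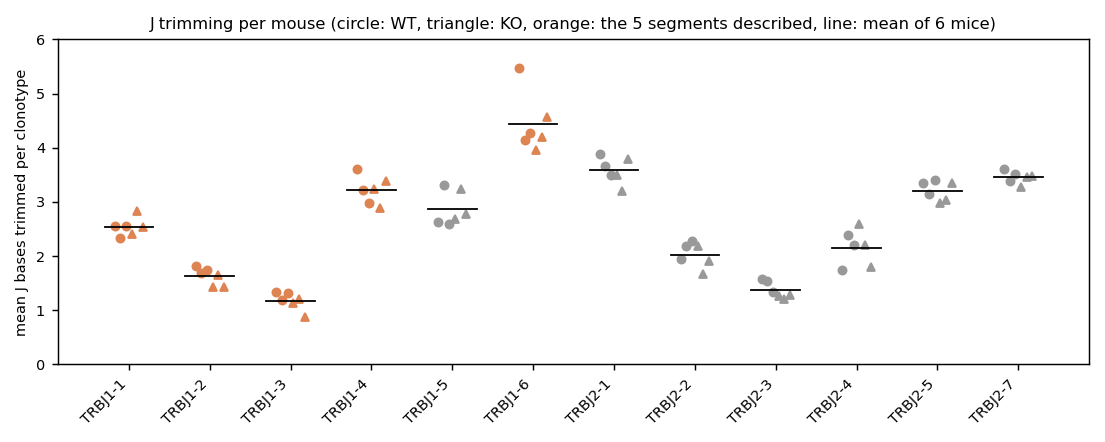
Mean number of J bases trimmed per clonotype (vertical axis) for each J segment in each of 6 mice (circles WT, triangles KO), with the mean as a line and the 5 segments described here in orange. TRBJ1-3 lies between 0.871 and 1.34 bases and TRBJ1-6 between 3.96 and 5.48, at the lower and upper end of all 12 segments.

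An intact J end was kept by 58.7 ± 5.88% of TRBJ1-3 clonotypes, 39.6 ± 6.93% of TRBJ1-2, 30.6 ± 2.27% of TRBJ1-1, 26.9 ± 3.69% of TRBJ1-4 and 16.1 ± 7.65% of TRBJ1-6. P bases, which can only be read at an intact end, were called in 33.6 ± 5.50% of TRBJ1-3 clonotypes and 8.97 ± 5.08% of TRBJ1-6 clonotypes. The loss of 7 bases was the most frequent trimmed state of TRBJ1-6, at 17.1% of its clonotypes, while 7 bases were lost in 0.423% of TRBJ1-3 clonotypes.

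The largest clonotype of every mouse is shown for the least and the most trimmed member. For TRBJ1-3, with the J part in capitals, they were:
WT replicate 1 with TRBV13-1: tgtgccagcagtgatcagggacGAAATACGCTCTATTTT
WT replicate 3 with TRBV20: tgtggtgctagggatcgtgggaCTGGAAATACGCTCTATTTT
WT replicate 4 with TRBV13-2: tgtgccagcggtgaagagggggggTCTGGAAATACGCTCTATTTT
KO replicate 1 with TRBV13-1: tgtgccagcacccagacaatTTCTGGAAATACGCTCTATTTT
KO replicate 2 with TRBV1: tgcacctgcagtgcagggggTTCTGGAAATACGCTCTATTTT
KO replicate 3 with TRBV2: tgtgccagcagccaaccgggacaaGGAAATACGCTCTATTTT
They had lost 5, 2, 1, 0, 0 and 4 J bases. For TRBJ1-6 they were:
WT replicate 1 with TRBV29: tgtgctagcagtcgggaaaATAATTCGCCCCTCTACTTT
WT replicate 3 with TRBV5: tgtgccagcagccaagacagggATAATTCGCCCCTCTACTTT
WT replicate 4 with TRBV1: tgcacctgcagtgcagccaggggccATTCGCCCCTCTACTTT
KO replicate 1 with TRBV16: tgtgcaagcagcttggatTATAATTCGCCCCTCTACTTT
KO replicate 2 with TRBV26: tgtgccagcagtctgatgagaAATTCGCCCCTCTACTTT
KO replicate 3 with TRBV5: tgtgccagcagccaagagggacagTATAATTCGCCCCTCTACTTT
These had lost 5, 5, 8, 4, 7 and 4 J bases, and none kept the intact end. In WT replicate 1 and in KO replicate 3 the loss was the same for both members, at 5 and 4 bases. Single large clonotypes need not show the mean trimming of a segment. The 6 TRBJ1-6 clonotypes differ from each other, and so do the 6 of TRBJ1-3.

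Between genotypes, TRBJ1-2 had lost 1.76 ± 0.0662 bases in WT and 1.51 ± 0.130 in KO mice without overlap, a pattern that 2 of 12 segments showed (16.7%). The other members overlapped, with KO minus WT between −0.387 for TRBJ1-6 and 0.112 for TRBJ1-1. For CDR3 length the groups of every member overlapped, while 1 of 12 segments (8.33%) did not. These comparisons were made after the values were seen and were not tested.

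After trimming, TRBJ1-6 with the longest germline part kept 20.6 ± 0.551 J bases in the CDR3 and TRBJ1-3 kept 20.8 ± 0.194, while TRBJ1-1 kept 17.5 ± 0.173. Among the members, CDR3s were shortest for TRBJ1-1 (39.7 ± 0.277 nucleotides) and TRBJ1-2 (40.8 ± 0.752), and longer for TRBJ1-4 (42.02 ± 0.247), TRBJ1-3 (42.6 ± 0.311) and TRBJ1-6 (42.7 ± 0.292). Those of TRBJ2-7 were as short as those of TRBJ1-1, at 39.7 nucleotides. Against the other segments of the same mouse, TRBJ1-1 was 2.20 ± 0.342 nucleotides shorter in 6 of 6 mice, and TRBJ1-3 (0.927 ± 0.288) and TRBJ1-6 (1.02 ± 0.283) were longer in 6 of 6 (exact sign-flip test, two-sided p = 0.03125, adjusted p = 0.0625). None of the 12 segments passed with both organs (0%, 6 at an unadjusted p under 0.05), and 8 passed in spleen libraries alone (66.7%), among them TRBJ1-1, TRBJ1-2, TRBJ1-3 and TRBJ1-6 (exact sign-flip adjusted p = 0.0469).

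The D segment called in the junction was mostly TRBD1, which lies upstream of the members. It was called in 52.7 ± 5.41% of TRBJ1-1 clonotypes, 51.9 ± 6.57% of TRBJ1-2, 41.4 ± 4.11% of TRBJ1-3, 52.01 ± 2.36% of TRBJ1-4 and 52.9 ± 9.17% of TRBJ1-6. TRBD2, which lies downstream of the members, was called in 4.60 to 6.47%. In TRBJ2 segments the calls were 26.3 ± 2.02% TRBD1 and 41.6 ± 0.649% TRBD2 on average. With the members averaged, TRBD2 was called in 3.02 to 7.55% over the 6 mice, against 40.8 to 42.5% for TRBJ2. TRBJ1-3 had the highest share without any D call, 45.04 ± 7.46%, against 33.6 to 35.4% for the other members.

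**Figure D5:**
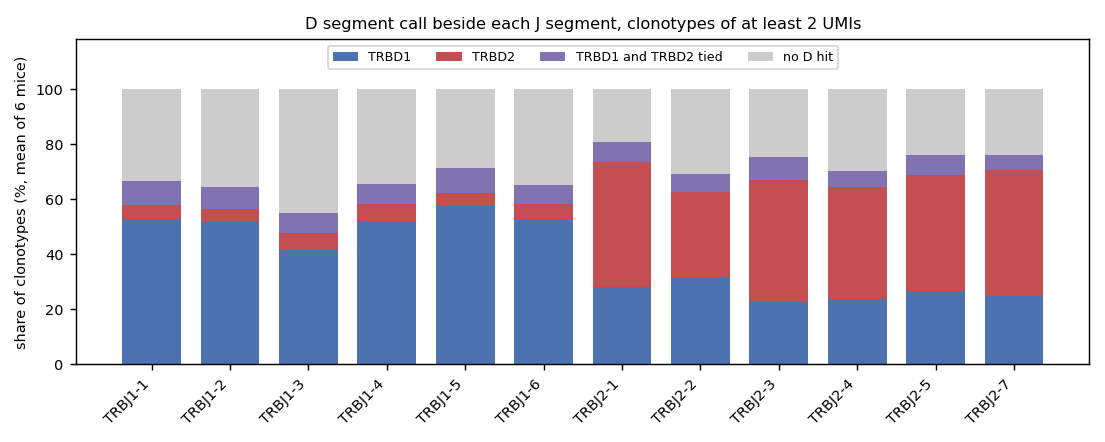
D segment called beside each J segment, as mean percent over 6 mice of clonotypes of at least 2 UMIs (stacked bars: TRBD1, TRBD2, both tied, no D hit). TRBD2 calls make up 4.60 to 6.47% for the 5 segments described here and 30.9 to 45.7% for TRBJ2 segments.

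The members' clonotypes also had fewer bases between the V and J parts than those of TRBJ2 segments. The mean was 7.96 ± 0.0869 for the members and 9.25 ± 0.178 for TRBJ2 segments, lower in 6 of 6 mice. Among the members, TRBJ1-3 had the fewest (6.96 ± 0.737) and TRBJ1-4 the most (8.29 ± 0.266). All 6 TRBJ2 means lay between 8.59 and 9.81 bases. TRBJ1-5, of the same cluster as the members, had 8.71 ± 0.519 bases, within that range.

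The clonotypes of each member were compared between both organs of a mouse. Of TRBJ1-1, 282 clonotypes were listed in both organs of WT replicate 4, out of 1279 in mLN and 4520 in spleen. In KO replicate 2, also of the kind with many unusual ends, it was 189, out of 1038 and 1247. In the kind with few, it was 72 in WT replicate 1, out of 131 and 93, and 96 in KO replicate 1, out of 150 and 169. The Morisita-Horn overlap, which is 1 when both organs hold the same clonotypes at the same shares, was 0.837 ± 0.113 for TRBJ1-1, 0.742 ± 0.306 for TRBJ1-4, 0.706 ± 0.175 for TRBJ1-2, 0.702 ± 0.201 for TRBJ1-3 and 0.679 ± 0.241 for TRBJ1-6 (SD, n = 6 mice). This overlap weighs clonotypes by their share, so large clonotypes count most. Means of the other J segments lay between 0.683 and 0.821. In KO replicate 3 the other J segments reached from 0.312 (TRBJ1-5) to 0.802 (TRBJ2-1). The lowest TRBJ1-2 value was that of KO replicate 2 (0.438). KO replicate 3, with the smallest mLN library, had the lowest overlap for TRBJ1-1 (0.669), TRBJ1-3 (0.318), TRBJ1-4 (0.162) and TRBJ1-6 (0.259), although 29 of its 30 TRBJ1-1 and 12 of its 12 TRBJ1-6 mLN clonotypes were also found in its spleen.

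The members were joined to different leading V segments, but with wide spread between mice. TRBJ1-1 was most often joined to TRBV13-1 (16.9 ± 12.7% of its UMIs), TRBV1 and TRBV13-2. TRBJ1-2 and TRBJ1-3 had TRBV13-2 (20.8 ± 18.02%) and TRBV13-1 (15.1 ± 11.3%) as their leading partners, and TRBJ1-4 and TRBJ1-6 had TRBV5 (16.6 ± 9.11% and 16.2 ± 16.7%). By clonotypes, TRBV13-1 made up 6.91 ± 1.99% of TRBJ1-1, so its lead by UMIs was not seen when each clonotype counted once. The same held for TRBJ1-2, where TRBV3 (12.1%) exceeded TRBV13-2 (9.005%), and for TRBJ1-3, where TRBV13-2 (11.5%) exceeded TRBV13-1 (7.42%). For TRBJ1-6, TRBV13-2 (12.2%) stood beside TRBV5. TRBV5 made up 11.1 ± 2.49% of TRBJ1-4 and 11.8 ± 1.66% of TRBJ1-6 clonotypes. Over all J segments, TRBV13-1 made up 8.19 ± 4.33% and TRBV5 9.01 ± 2.32% of UMIs.

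Clonotypes with unusual J ends were unevenly spread over the members. Among clonotypes of 1 UMI in the 7 libraries with many such ends, the share was 64.9% for TRBJ1-2, the highest of the 12 J segments, then 47.2% for TRBJ1-1, 38.1% for TRBJ1-3, 34.9% for TRBJ1-4 and 30.1% for TRBJ1-6. TRBJ2 segments had 25.8 to 32.2% and TRBJ1-5 had 59.5%. The usual last 9 bases of a TRBJ1-2 CDR3 are TACACCTTC, and the commonest unusual end, TACTCCTTC, accounted for 33.7% of its unusual entries. In the 5 other libraries TRBJ1-2 had 4 unusual ends per 100 in its 100 such clonotypes. These entries held 1.73 to 3.65% of the members' UMIs in the 7 libraries, and 0.0549 to 0.313% in the 5.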

How the data were processed

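TCR beta libraries of 12 samples were prepared by 5′ RACE with UMIs and sequenced on a MiSeq, and the authors used MIGEC to group reads by UMI and MiXCR to build the clonotypes. The J reference of that alignment is not given in the sources used here. The deposited tables give for each clonotype a count, not normalized, and a fraction of its library, which equals the count divided by the library total (largest deviation 9.97e-17). The tables do not name the unit of the count. It is read here as UMIs because the described processing counts them, and every UMI share and interval rests on this reading. Coordinates and germline sequences were taken from GRCm38. The members, lists and tests were chosen with earlier results of these data known.

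UMIs per J segment were tested with edgeR 4.0.16 (quasi-likelihood, library totals as library sizes, a minimum of 10 UMIs per segment in 3 or more libraries, which left 12 segments), with Benjamini-Hochberg adjustment over the 12 segments. WT and KO were compared within each organ, and organs with the mouse as a block. DESeq2 1.42.0 was an alternative. Single values were compared by exact permutation over 3 against 3 mice (20 assignments) or exact sign-flip tests over 6 mice (64 patterns). Clonotype numbers were averaged over 50 draws of 2488 UMIs. Trimming, length and D calls came from the deposited alignments of clonotypes of at least 2 UMIs. A J end was called unusual when the last 9 CDR3 bases were not those usual for its J segment, and libraries were divided at 10% of 1-UMI clonotypes, a split made after the data were seen. Named clonotypes were those of highest mean share over the libraries and, chosen after values were seen, the largest of each mouse. Wilson intervals and floors cover counting error only. The labels do not say whether replicates were independent experiments, but the paper describes its TCR sequencing as a single experiment with 3 mice per group. The p-values therefore measure the spread between these mice and not between experiments.

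Same-numbered WT and KO mice did not deviate together (mean r = −0.214 over 4 pairs), so the numbers were not taken to pair them, while the organs of 1 mouse did (r = 0.549 to 0.821 over 6 pairs). On simulated counts for the comparison of KO and WT spleen (12 segments, 50 simulations per fold), the edgeR test recovered 96% of 4-fold and 100% of 16-fold changes. Smaller changes and the mLN comparison were not part of these simulations. They therefore give no recovery rate for changes of the size fitted for the members.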

Additional observations from a re-analysis of the deposited data

Results flagged for a closer look

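The overlap of TRBJ1-3 clonotypes between spleen and mLN was 0.318 in KO replicate 3, far below the other 5 mice (0.673 to 0.858) by Dixon's criterion. This was 1 of 15 sets of mouse values examined, and chance gives about 1 in 20. In the same mouse TRBJ1-4 (0.162) and TRBJ1-6 (0.259) were lower, and TRBJ1-1 (0.669) and TRBJ1-2 (0.618) higher. The J segments outside the members lay between 0.312 and 0.802 in this mouse. The mLN library of this mouse had 2488 UMIs and 20 TRBJ1-3 clonotypes, 18 of which were also in its spleen. The part of this depth in the low overlap was not tested.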

How the results depend on the processing

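In spleen 1 J segment was called under every alternative run, never a member. In mLN the count of 0 rose to 2 with clonotypes counted in place of UMIs and to 1 with clonotypes of at least 2 UMIs, an alternative chosen after seeing the data, and no member was called. The smallest adjusted p of a member over the 335 alternative usage values (edgeR or DESeq2) was 0.0890. Of 295 usage values of the members, 258 kept their direction and 37, none of them called, changed sign, as did 15 of 40 interaction values. With the replicate number as a block (numbers 1 and 3 in both genotypes), 1 segment was called in spleen and 0 in mLN, and the TRBJ1-2 log2 fold change moved to 0.74 in spleen and 1.12 in mLN. Without the mouse block, 0 segments were called between organs. For CDR3 length, 8 segments passed with spleen libraries only, against 0 with both organs. For trimming, 0 passed when weighted by UMIs, against 9, and the cause was not tested. Leaving out single mice changed no count of usage calls. For sign-flip tests it gives values only, since 5 mice cannot pass. Depth limits KO replicate 3 mLN most, with 12 to 30 clonotypes per member.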
